A study of Sus scrofa with 12 samples.

Results

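The miRNAs described here are the candidate miRNAs of fetal pig longissimus muscle, which carry no miRNA name and are called after the pig chromosome (NC_) or unplaced scaffold (NW_) on which their precursor was predicted. The deposited table of small RNA reads held 800 names, 415 of them candidates and 385 known miRNAs. Members were chosen by their reads, at least 10 in at least 1 of the 6 libraries, and names whose reads were identical in every library were counted once. This gave 124 candidate miRNAs from 134 names, beside 276 known miRNAs selected on the same minimum, 400 in all.

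MicroRNAs are short RNAs cut from hairpin precursors. They guide a silencing complex to partly complementary sites in messenger RNAs, and bases 2 to 8 from the 5′ end, called the seed, do most of the pairing. In muscle, families such as miR-1, miR-206 and miR-133 are enriched in differentiating fibres, while the miR-200 family and miR-192 are known from epithelia. A candidate miRNA is a prediction, made from reads that pile up on a sequence able to fold into a hairpin, and such a prediction can also fall on fragments of other RNAs.

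Sows were given a calorie-restricted diet (RE) or a normal diet (NE) after mating, and fetal longissimus muscle was taken at 35, 55 or 90 dg (days of gestation). All groups are pig (Sus scrofa) fetuses, and neither the labels nor the names of the libraries give their sex. Each diet and stage had 1 small RNA library and 1 polyadenylated RNA library, named RE35, NE35, RE55, NE55, RE90 and NE90. The methods name 1 fetus from each of 4 sows per group and do not say whether their RNA was pooled. With 1 library per condition, a difference between 2 libraries has no replicate check, and Fisher's exact test on their reads compares those libraries, not the diets or stages.

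Bases are known for 9 of the 124 members, from the primers the study designed for them. The part of a forward primer after the 14 letters shared by all 34 forward primers gives the 5′ bases of the miRNA. The sequences are shown because they tie some members to known miRNA families, and the seed is in capitals.
NC_010448.3_14733: tAATACTGcctggtaat
NC_010447.4_13656: aGGAATTTtggtt
NC_010446.4_12775: cGGGGTGTgggg
NW_003539007.1_21524: aTCACACAaaggcaac
NC_010448.3_15620: aCTGGACTtggagcc
NC_010449.4_16480: aCTGGACTtggaatca
miR-378b-3p: aCTGGACTtggagtc
NC_010452.3_53: cTAATGGAtaag
NC_010445.3_12005: cCTGCCTGgaact
NC_010454.3_1179: aCCCCACTcctg

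The known miR-378b-3p is included because 2 members share its seed. NC_010448.3_15620 is identical to it over the first 13 bases and NC_010449.4_16480 over the first 12. The seed of NC_010448.3_14733 is that of the epithelial miR-200b, miR-200c and miR-429, and the seed of NW_003539007.1_21524 is that of miR-377, a miRNA of the imprinted DLK1-DIO3 cluster of mammals. The primers for reverse transcription give the last 8 bases. They were atgatgac for NC_010448.3_14733 and acttttgt for NW_003539007.1_21524. Whether these 2 members match the miRNAs of their seeds over the full length was not tested. For NC_010454.3_1179 the last 8 bases were tggcacca. Its last letters, CCA, are the triplet that cells add to the 3′ ends of mature tRNAs, and of the 34 miRNAs with primers only 1 had this ending. Whether its reads come from a tRNA was not tested.

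The libraries held 1522142 to 3811231 reads on miRNAs, with NE35 the shallowest and RE90 the deepest. TPM here is a miRNA's reads per 1000000 reads on all miRNAs of the library, so 10 reads are worth 6.57 TPM in NE35. Muscle miRNAs summed to 41499 TPM in RE35, 26990 TPM in NE35 and 122715 to 184360 TPM later. Of 10 listed muscle mRNAs 7 were found, which summed to 26284 RPKM in RE35, 15487 RPKM in NE35 and 61056 to 115202 RPKM later. The NE35 library stood apart: 10 of 12 mRNAs of kidney and mesonephros epithelium were found, and they summed to 11.3 RPKM (reads per kilobase of gene, scaled to library size) in RE35, 519 RPKM in NE35 and 2.54 to 6.22 RPKM in the other 4 libraries. KNG1, a kininogen, had 0 reads in RE35, 1049 in NE35 and 0 later. Known miRNAs of epithelium and kidney summed to 552 TPM in RE35, 6027 TPM in NE35 and 26.1 to 42 TPM later. Cartilage mRNAs, 6 of 7 found, summed to 267 RPKM in RE35, 55.1 RPKM in NE35 and 2.25 to 17.8 RPKM later. In these bulk samples, fewer cells of a type and less RNA per cell cannot be told apart.

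Candidate miRNAs were mostly rare. Their median level over the 6 libraries was 11.8 TPM, against 211 TPM for the known miRNAs, and 55 of the 124 never reached 50 reads in any library. On the other side, 28 members reached at least 1000 reads. All 6 libraries held at least 10 reads for 63 members, against 238 of the 276 known miRNAs. A further 27 members reached 10 reads in 1 library only, which was RE35 for 12 of them and NE35 for 9. Just inside the minimum were 4 members with a highest count of 10 reads, such as NC_010444.3_9711 with 10 in RE35 and 3 to 9 elsewhere, and just outside were 8 names with a highest count of 9 reads.

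The number of members with at least 10 reads was 103 in RE35, 92 in NE35, 79 in RE55, 85 in NE55, 85 in RE90 and 74 in NE90. Counted instead at 6.57 TPM or more, which sets all libraries to the minimum of the shallowest, the number was 78 in RE35, 92 in NE35, 69 in RE55, 65 in NE55, 61 in RE90 and 58 in NE90. The highest TPM of a member fell in a 35 dg library for most: in RE35 for 30 and in NE35 for 50 members (40.3%, against 37.3% of known miRNAs). The median member was at 11.1 TPM in RE35 and 15.8 TPM in NE35, and at 6.29 TPM in RE90 and 5.07 TPM in NE90.

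**Figure D1:**
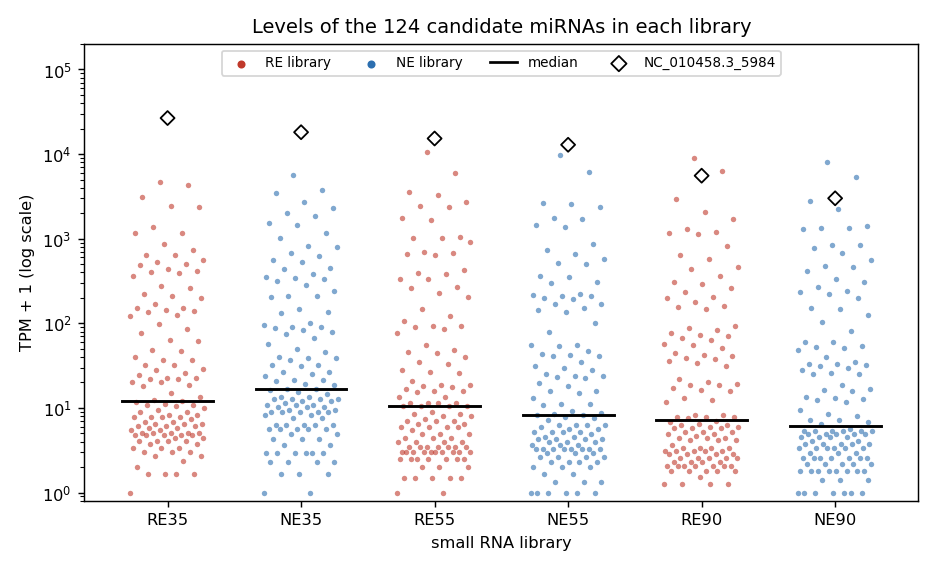
TPM + 1 on a log axis for each of the 124 candidate miRNAs in the 6 small RNA libraries, with RE libraries left of NE libraries at each stage. The line is the median of the library, from 15.8 TPM in NE35 to 5.07 TPM in NE90, and the diamond is NC_010458.3_5984, which had 26653 TPM in RE35 and 3002 TPM in NE90.

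A few members took most of the reads. All members together took 5.77% of the miRNA reads in RE35 and 5.49% in NE35, 6.06% in RE55 and 5.08% in NE55, and 3.92% in RE90 and 3.53% in NE90. The exact 95% counting interval was widest in NE35, at 5.45% to 5.52%. Such intervals cover counting error only, since reads copied by PCR are not independent molecules. The 5 leading members of a library held 61.4% to 71.3% of the member reads in the 35 dg libraries and 60.9% to 66.6% later.

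NC_010458.3_5984, from chromosome 16, led at 35 and 55 dg. It had 26653, 15279 and 5555 TPM in RE35, RE55 and RE90, and 18135, 12884 and 3002 TPM in NE35, NE55 and NE90. It held 46.2% of all member reads in RE35 and 33.1% in NE35. Without it the members' share of the reads was 3.11% in RE35 and 3.67% in NE35, and 3.36% in RE90 and 3.23% in NE90. At 90 dg the leading member was NW_003539007.1_21542, with 8906 TPM in RE90 and 8130 TPM in NE90. NW_003537647.2_20712 was the steadiest of the 5 most abundant, between 4631 TPM in RE35 and 6337 TPM in RE90. The other 2 of the 5 were NC_010461.4_19710 from chromosome X, at 2013 to 3535 TPM, and NC_010447.4_14349 from chromosome 5, which was highest in RE35 with 4336 TPM and lowest in NE90 with 845 TPM.

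The members came from 31 sequences, with 100 on 19 chromosomes and 24 on 12 scaffolds. Chromosome X held 19 members, scaffold NW_003539007.1 held 12 and chromosome 5 held 11. In 8 sets of names, 18 names in all, the reads were identical in every library, so reads could not be assigned to 1 locus. NC_010454.3_1179 shared its reads with NW_003613004.1_20509, and NC_010454.3_1168 shared them with NC_010454.3_1591 and NW_003539007.1_21544.

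Diet was compared first at 35 dg. A miRNA was called different between 2 libraries when Fisher's exact test gave p under 0.01 and the levels differed more than 2-fold, among miRNAs with at least 10 reads in either library. Of 113 members tested, 8 were higher in RE35 than in NE35, beside 2.34% of all 385 miRNAs tested, and 20 were lower in RE35, beside 11.2% of all. The median log2 ratio of RE35 over NE35 was -0.03 for members and 0.03 for all miRNAs. Members enter this count through reads that had to reach 10 in a library, so those high in NE35 alone had to differ, and the counts are a description.

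The largest differences at high read counts were in members that were abundant in NE35. NC_010448.3_14733, with the miR-200 seed shown above, had 605 reads in RE35 (207 TPM) and 5230 reads in NE35 (3436 TPM). It had 15 reads in RE55, 13 in NE55, 16 in RE90 and 19 in NE90. It was 16.6-fold lower in RE35 than in NE35 (15.3 to 18.1, 95% counting interval). NC_010447.4_14168 had 139 reads in RE35 and 1198 in NE35, a 16.5-fold lower level (13.9 to 19.9), and 1 to 4 reads in every later library. Both were thus present in both libraries of 35 dg. Afterwards NC_010447.4_14168 was near the limit of detection, and NC_010448.3_14733 was low, at 4.2 to 7.43 TPM.

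NC_010447.4_14166 had 354 reads in RE35 and 2322 in NE35, 12.6-fold lower in RE35 (11.3 to 14.1). NC_010447.4_13656 had 245 reads in RE35 and 1771 in NE35, 13.9-fold lower (12.1 to 15.9). Unlike the members before them, these remained at 45.1 to 59.7 TPM and at 51.1 to 120 TPM in the 4 later libraries. The RE35 level of NC_010447.4_13656, 83.8 TPM, lay within its later range, so NE35 alone was high. NC_010448.3_14394 had 2 reads in RE35, 85 in NE35 and 1 to 6 later, and its ratio of RE35 to NE35 has a wide interval (21.9-fold to 685-fold lower). NC_010446.4_12775 had 36 reads in RE35 and 145 in NE35, 7.73-fold lower (5.34 to 11.5), and 12 to 43 later.

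Known epithelial and kidney miRNAs had the same library high. The known miR-429 had 45 reads in RE35 and 481 in NE35, and at most 1 read later. For miR-192 the reads were 57 in RE35 and 3442 in NE35, and for miR-194b-5p 78 in RE35 and 3388 in NE35. The known miR-205 differed less, with 1417 reads in RE35 and 1199 in NE35, which are 485 and 788 TPM. Of 8 listed miRNAs, miR-429, miR-205, miR-192 and miR-194 were found, under 6 names, and 5 of these names reached 10 reads. No name was found for miR-200a, miR-200b, miR-200c and miR-141. The part that kidney or other epithelium in the NE35 sample has in the levels of the members was not tested.

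**Figure D2:**
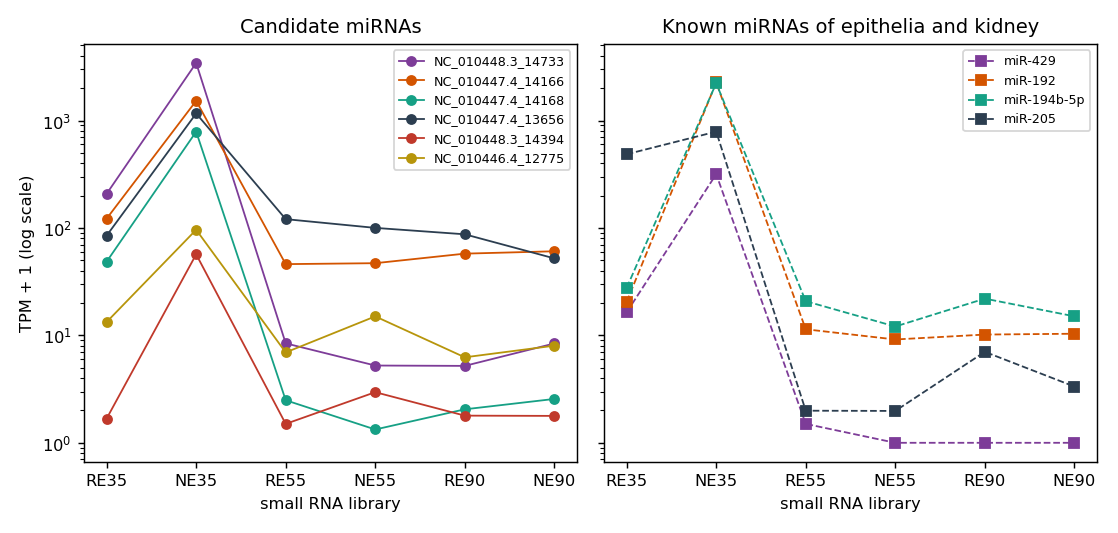
TPM + 1 on a log axis in each small RNA library for 6 candidate miRNAs (left) and 4 known miRNAs of epithelia and kidney (right), with lines joining the values of 1 miRNA as a guide. All 10 are highest in NE35, and miR-429 had 316 TPM there and at most 0.5 TPM after 35 dg.

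A group of members from chromosome X was also highest in NE35. Their names end in numbers from 20429 to 20452, and they were grouped after their values had been seen. All 9 had their highest TPM in NE35, and 8 of 9 after TMM scaling, which assumes that most miRNAs do not differ. The members summed to 256 TPM in RE35 and 697 TPM in NE35. At later stages the sum was 213 TPM in RE55, 180 TPM in NE55, 217 TPM in RE90 and 227 TPM in NE90. In the comparison of RE35 with NE35, 7 of the 9 were called lower in RE35, beside 11.2% of all miRNAs, and in NE55 against NE35 all 9 were called lower, beside 35.9%. Nothing can be read from these counts, since the group was picked for being high in NE35 and 4 of the 9 reached 10 reads in that library only. NC_010461.4_20444, the most abundant, had 490 reads in RE35 and 683 in NE35, which are 168 and 449 TPM. NC_010461.4_20429 had 8 reads in RE35, 27 in NE35, 6 in RE90 and 0 in RE55, NE55 and NE90.

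**Figure D3:**
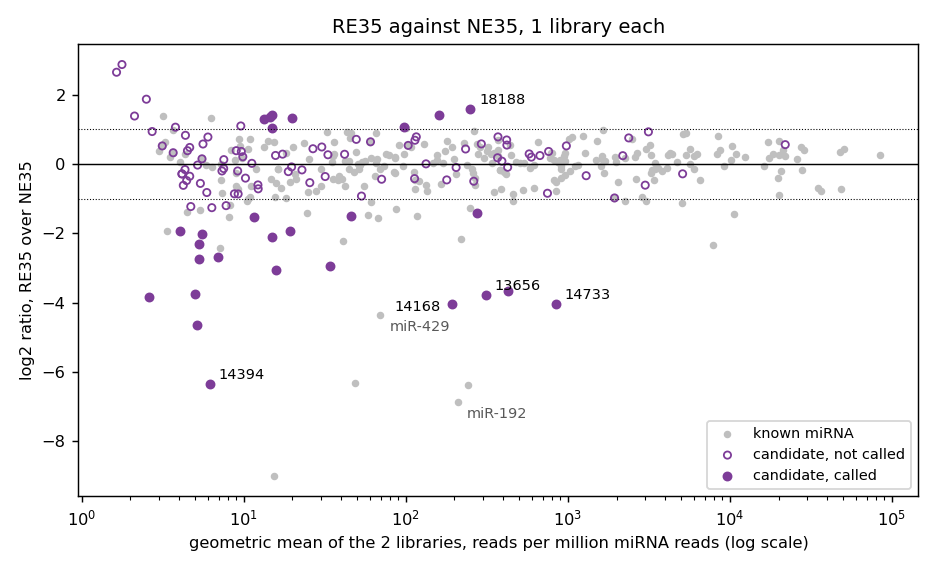
Log2 ratio of RE35 over NE35 against the level, as the geometric mean of both libraries in reads scaled to the miRNA reads of each library, as TPM, on a log axis, for miRNAs with reads in both libraries. Filled points are called candidate miRNAs, and the dotted lines mark 2-fold. NC_010448.3_14733, NC_010447.4_14168 and NC_010447.4_13656 lie 13.9-fold to 16.6-fold below equality, and NC_010451.3_18188 is 2.99-fold above it.

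The 8 members higher in RE35 differed by less. NC_010451.3_18188 had 434 TPM in RE35 and 145 TPM in NE35, a 2.99-fold difference (2.59 to 3.46). NC_010445.3_12005 had 72 reads in RE35 and 14 in NE35, and was 2.68-fold higher in RE35 (1.5 to 5.14). NC_010454.3_1179 had 768 reads in RE35 and 151 in NE35, 2.65-fold higher (2.22 to 3.18). The other 5 had 13 to 102 reads in NE35 and were 2.05-fold to 2.53-fold higher in RE35. Cartilage mRNAs were higher in RE35 too, by the sums given above, and cartilage-enriched miR-140-3p had 21454 TPM in RE35 and 13942 TPM in NE35. The part of cartilage in these differences was not tested.

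At 55 dg, 5 of 88 members were higher in RE55 than in NE55, beside 4.29% of all 350 miRNAs, and 6 were lower, beside 2.86%. TMM scaling gave 3 higher and 9 lower. The members lower in RE55 included a set whose levels rose after 35 dg. NC_010451.3_19102 had 171 reads in RE55 (84.7 TPM) and 610 in NE55 (199 TPM), 2.35-fold lower (1.98 to 2.8). NC_010454.3_1559 had 30 reads in RE55 and 123 in NE55, 2.7-fold lower (1.8 to 4.17). NC_010457.4_5124 had 25 reads in RE55 and 87 in NE55, 2.29-fold lower (1.46 to 3.74), and NC_010449.4_16480, with the miR-378b-3p seed, had 54 and 166, 2.03-fold lower (1.48 to 2.81). All 4 were low at 35 dg, at 0.66 to 20.9 TPM.

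Higher in RE55 were NC_010445.3_11338, with 387 TPM in RE55 and 152 TPM in NE55 (2.55-fold, 2.27 to 2.87), and NC_010461.4_19702, with 423 TPM in RE55 and 209 TPM in NE55 (2.02-fold, 1.83 to 2.25). NC_010461.4_19831 had 51 reads in RE55 and 15 in NE55, a 5.16-fold difference (2.86 to 9.88). At 35 dg NC_010461.4_19831 had differed the other way, with 20 reads in RE35 and 30 in NE35.

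At 90 dg, 4 of 87 members were higher in RE90 than in NE90, beside 6.09% of all 345 miRNAs, and 1 was lower, beside 1.16%. These shares lie near those of all miRNAs. NC_010461.4_19789 had 315 reads in RE90 (82.7 TPM) and 45 in NE90 (17.6 TPM), 4.71-fold higher (3.44 to 6.59). NC_010451.3_18448 had 74 reads in RE90 and 8 in NE90, 6.22-fold higher (3 to 14.9), and NC_010451.3_19201 had 43 and 10, 2.89-fold higher (1.43 to 6.45). The last of these and NC_010451.3_18188, the other member higher in RE90, come with NC_010451.3_18448 from chromosome 9, whose 5 tested members all had a higher level in RE90 than in NE90 (median log2 ratio 1.53, against 0.05 for all miRNAs). The 4 called members were at their highest at 35 dg, where NC_010451.3_18448 had 133 TPM in RE35 and in NE35. Neuronal miRNAs were also higher in RE90: miR-124a had 695 reads in RE90 and 1 in NE90, and miR-9 had 560 in RE90 and 19 in NE90. Cartilage mRNAs summed to 17.8 RPKM in RE90 and 2.25 RPKM in NE90. Whether other tissue in the RE90 sample had a part in the members' levels was not tested.

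Few members differed between the RE and NE libraries at more than 1 stage. The 3 diet comparisons share no library. At least 1 of them called 38 members, of which 4 were called in the same direction at 2 stages and 2 in opposite directions. Among miRNAs measured in all 3 comparisons, 25 of 77 members and 44 of 252 known miRNAs were called at least once, and 2 members and 2 known miRNAs were called higher, and as many of each lower, at 2 stages or more. NC_010451.3_18188 was higher in RE35 than in NE35. It was also higher in RE90, with 72.4 TPM, than in NE90, with 33.6 TPM (2.16-fold, 1.69 to 2.78). NC_010455.4_3061 was higher in RE35 and RE55. NC_010446.4_12775 and NW_003613327.1_21604 were lower in RE35 and RE55, and for NW_003613327.1_21604 the reads were 4 in RE35 and 28 in NE35, and 4 in RE55 and 45 in NE55. Of 77 members measured in all 3 comparisons, 11 (14.3%) were higher in RE in each and 4 (5.19%) lower in each. Among 252 known miRNAs 21.4% were higher in each and 6.35% lower in each. TMM scaling turned the split of the members round, to 6 higher and 7 lower. With all 6 libraries in 1 fit of diet and stage (edgeR's quasi-likelihood test on counts, Benjamini-Hochberg adjustment), 0 of 97 members and 0% of 365 miRNAs were called between RE and NE at an adjusted p under 0.05. At an unadjusted p under 0.05 there were 4 members, and DESeq2 also called 0.

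Stages were compared next, first 55 dg with 35 dg. In the fit of 6 libraries, in which both diets serve as replicates of a stage, 14 of 97 members were higher at 55 dg than at 35 dg, beside 16.4% of all 365 miRNAs, and 11 were lower, beside 11.8%. These calls rest on both libraries of 35 dg: without NE35 or without RE35 none of the 25 calls was kept, and without NE55 or RE55 there were 3 and 8 calls. The direction of the 25 members did not change in any of these fits where they could be tested. In pairs of libraries, RE55 had 22 of 108 members higher than RE35, beside 18.5% of all 378 miRNAs, and 22 lower, beside 18.5%. NE55 had 17 of 107 members higher than NE35, beside 15.2% of all 376, and 43 lower, beside 35.9%. TMM scaling turned the NE split into 29 higher and 34 lower. NE35 and RE35 also enter the diet comparison at 35 dg, so the comparisons of stage and diet are not independent.

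The arms of RE and NE share no library. Among 94 members tested in both, 15 were called higher at 55 dg in both arms, which is 71.4% of those called in RE and 93.8% of those called in NE. For known miRNAs these shares were 70.8% and 85%. For lower calls the overlap was 16 members, 72.7% of those in RE and 47.1% of those in NE, beside 89.4% and 47.2% for known miRNAs. Only NC_010461.4_19831 was called in opposite directions.

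The members of scaffold NW_003539007.1 had higher levels after 35 dg. Of its 12 members 11 were tested, and all 11 had a higher level at 55 dg than at 35 dg in both arms. Of these, 10 were called higher in RE55 against RE35, beside 18.5% of all miRNAs, and 8 in NE55 against NE35, beside 15.2%. The 6-library fit called 6 of the 11 higher, beside 16.4%. Their median log2 ratio was 1.37 in RE, against -0.28 for all miRNAs tested, and 1.28 in NE, against -0.58 for all. NW_003539007.1_21542 had 3084 TPM in RE35, 10473 in RE55 and 8906 in RE90, and 1834 in NE35, 9689 in NE55 and 8130 in NE90. Its log2 fold change at 55 dg over 35 dg in the 6-library fit was 2.32 ± 0.35 (SE, adjusted p = 0.026, edgeR). NW_003539007.1_21524, with the miR-377 seed, had 1174, 3313 and 2944 TPM in RE35, RE55 and RE90, and 819, 2360 and 2790 TPM in NE35, NE55 and NE90.

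The other members of the scaffold lay between 23 and 1763 TPM, apart from NW_003539007.1_21564, which never exceeded 10 reads. The lowest of the 6 libraries was NE35 for 10 of the other 11, the exception being NW_003539007.1_21540, lowest in NE90. In RE35 all 11 were 1.22-fold to 2.1-fold above NE35, and in RE55 they were 1.08-fold to 1.89-fold above NE55. At 35 dg 1 was called higher, beside 2.34% of all miRNAs, and at 55 dg 0, beside 4.29%. After TMM scaling all 11 remained above in RE35 and 9 of 11 in RE55. In RE90 against RE55, 7 of 12 were called lower, beside 11.2% of all miRNAs, with a median log2 ratio of -1.08, or -0.74 after TMM scaling. In NE90 against NE55, 1 of 11 was called lower, beside 6.88% of all, with a median of -0.16, or 0.02 after TMM scaling. The difference between the arms was not tested. Known miRNAs of the DLK1-DIO3 cluster, 16 names found for 24 listed, summed to 17729, 46923 and 29696 TPM in RE35, RE55 and RE90, and to 9982, 36701 and 27220 TPM in NE35, NE55 and NE90. The 12 scaffold members summed to 7371, 21066 and 15493 TPM in RE and to 4761, 16953 and 15396 TPM in NE at the same stages. Whether the scaffold belongs to that cluster was not tested.

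**Figure D4:**
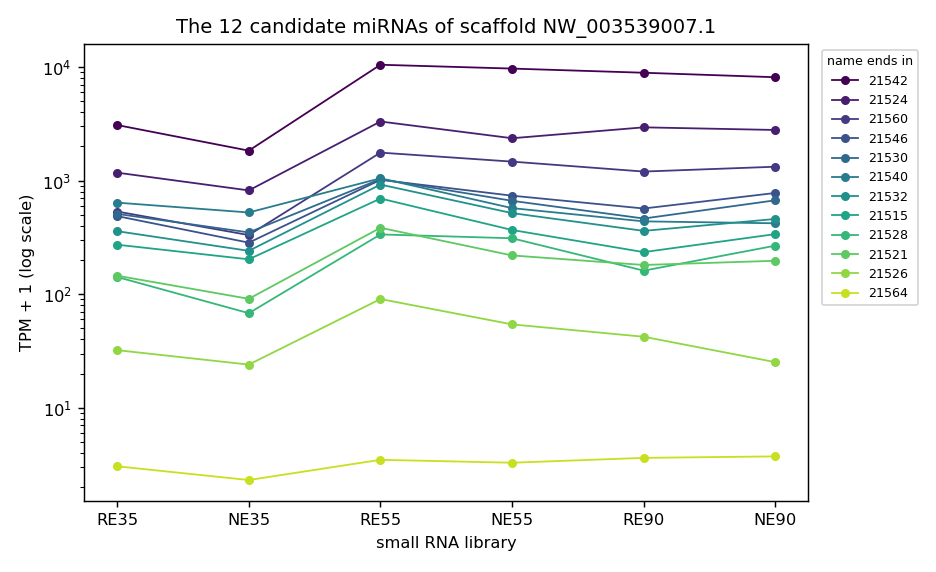
TPM + 1 on a log axis of the 12 candidate miRNAs of scaffold NW_003539007.1 in the 6 small RNA libraries, with lines joining the values of 1 miRNA as a guide. NE35 is lowest and RE55 highest for most, and NW_003539007.1_21542 had 10473 TPM in RE55 and 1834 TPM in NE35.

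A second set rose steeply after 35 dg from very low levels. NC_010454.3_1559 had 5, 30 and 238 reads in RE35, RE55 and RE90, and 1, 123 and 100 in NE35, NE55 and NE90. In the 6-library fit its log2 fold change at 55 dg was 4.56 ± 0.89 (adjusted p = 0.03, edgeR). NC_010451.3_19102 had 20.9, 84.7 and 290 TPM in RE and 8.54, 199 and 242 TPM in NE at 35, 55 and 90 dg (3.51 ± 0.8, adjusted p = 0.037, edgeR). NC_010457.4_5124 had 2.4, 12.4 and 40.7 TPM in RE and 3.28, 28.4 and 32 TPM in NE (3.06 ± 0.58, adjusted p = 0.029, edgeR).

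Both members with the miR-378b-3p seed moved this way. NC_010448.3_15620 had 5.82, 14.4 and 32.5 TPM in RE35, RE55 and RE90, and 3.28, 26.8 and 24.2 TPM in NE35, NE55 and NE90. NC_010449.4_16480 had 8.9, 26.7 and 75.6 TPM in RE and 11.8, 54.2 and 52.7 TPM in NE. The known miR-378b-3p was more abundant, with 144, 258 and 630 TPM in RE and 70.3, 504 and 471 TPM in NE. For all 5 members, RE90 was called higher than RE55, by 2.27-fold to 4.2-fold, beside 6.61% of all miRNAs. NE90 was within 1.22-fold of NE55 and was not called, beside 0.573% of all called higher and 6.88% lower. NC_010454.3_1559, NC_010451.3_19102 and NC_010457.4_5124 were named in part for their high fold in RE90 against RE55, so the count of calls is a description. The difference between the arms was not tested, since no condition has a second library.

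**Figure D5:**
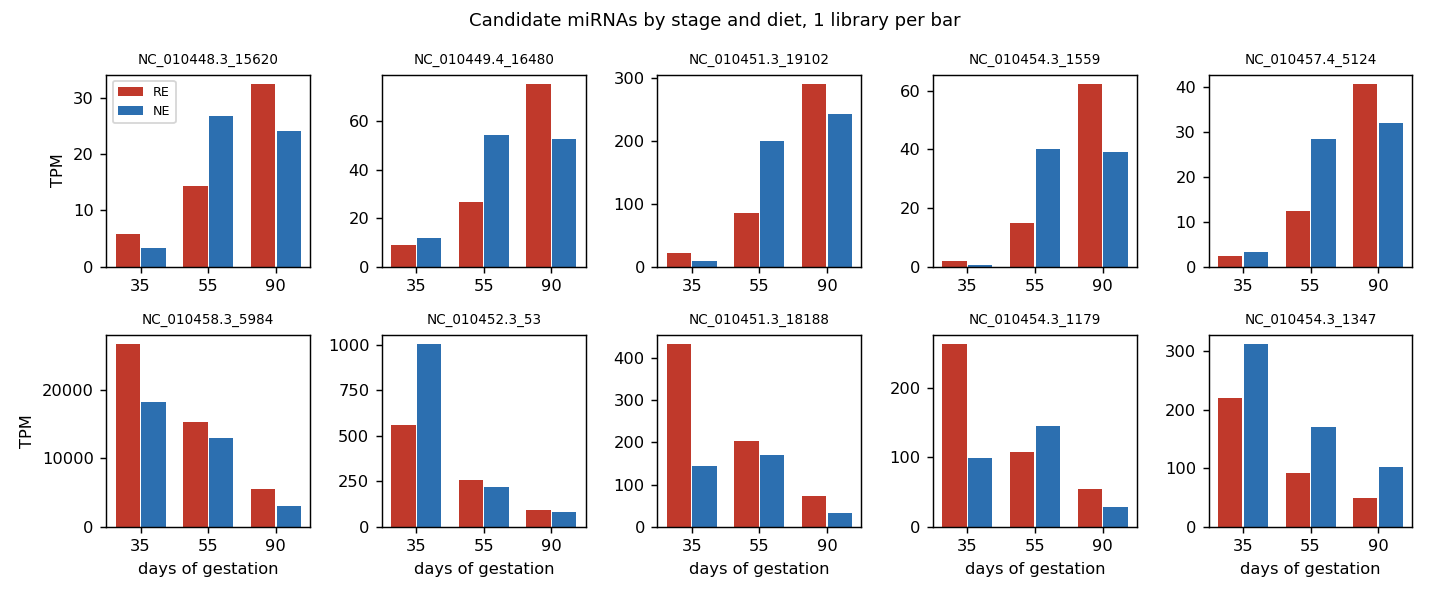
TPM of 10 candidate miRNAs at 35, 55 and 90 dg, with the RE library left of the NE library at each stage and 1 library per bar. The 5 miRNAs of the top row increase after 35 dg, with RE55 below NE55 and RE90 above NE90, and the 5 of the bottom row are highest in a 35 dg library.

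Lower at 55 dg in both arms were members with most of their TPM at 35 dg. NC_010451.3_18448 had 390 reads in RE35 and 203 in NE35, against 16 in RE55 and 10 in NE55, with a log2 fold change of -4.52 ± 0.68 (adjusted p = 0.026, edgeR). NC_010461.4_19874 had 51 reads in RE35 and 31 in NE35, and 1 to 5 later (-4.23 ± 0.64, adjusted p = 0.026, edgeR). NC_010451.3_19280 had 135 in RE35 and 58 in NE35, and 3 to 18 later (-3.83 ± 0.64, adjusted p = 0.026, edgeR). In contrast to the members high in NE35, these differed by at most 1.21-fold between RE35 and NE35, within their counting intervals. NC_010448.3_14733 fell by 7.19 ± 1.36 and NC_010447.4_14168 fell by 7.9 ± 1.51 on the log2 scale (adjusted p = 0.029 each, edgeR). Some markers of other tissues were also higher at 35 dg, as in the cartilage and kidney sums given above. Of 5 neuron mRNAs 4 were found, and they summed to 40.9 RPKM in RE35, 63.5 RPKM in NE35 and 1.15 to 9.12 RPKM later. STMN2 alone had 39.4 RPKM in RE35 and 62.8 RPKM in NE35, and SNAP25 had 0.27 and 0.49 RPKM there. ELAVL3 and TUBB3 were instead highest in RE90, at 0.68 and 1.71 RPKM. Neuron miRNAs summed to 177 TPM in RE35, 140 TPM in NE35 and 329 TPM in RE90, with 7.8 to 28.2 TPM in RE55, NE55 and NE90. The part of other tissues in the stage differences was not tested.

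Between 55 and 90 dg fewer members changed. RE90 had 7 of 88 members higher than RE55, beside 6.61% of all 348 miRNAs, and 20 lower, beside 11.2%. With TMM scaling the split was 10 higher and 11 lower. NE90 had 0 of 87 higher than NE55, beside 0.573% of all 349, and 13 lower, beside 6.88%. Of the lower calls 7 were shared by both arms, 36.8% of those in RE and 58.3% of those in NE, beside 15.8% and 37.5% for known miRNAs. The 6-library fit called 0 of 97 members and 0% of all miRNAs, with 7 members at an unadjusted p under 0.05. DESeq2 called 1 member, which was lower.

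The abundant NC_010458.3_5984 was among the shared ones. RE90 was 2.75-fold below RE55 (2.7 to 2.8) and NE90 4.29-fold below NE55 (4.19 to 4.4). NC_010447.4_14349 was 2.18-fold lower in RE90 than in RE55 and 3.09-fold lower in NE90 than in NE55. NC_010452.3_53 decreased at each stage, with 559, 258 and 91.1 TPM in RE35, RE55 and RE90, and 1005, 216 and 80.4 TPM in NE35, NE55 and NE90. NC_010445.3_12005 was highest at 55 dg in both arms, with 24.6, 54.5 and 17.8 TPM in RE35, RE55 and RE90, and 9.2, 55.1 and 25 TPM in NE35, NE55 and NE90. The largest fold at 50 reads or more in NE was that of NC_010449.4_16900, 6.81-fold lower in NE90 (7 reads) than in NE55 (57 reads), with an interval of 3.1 to 17.7.

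The study carried 3 members into reporter assays, each with a gene whose mRNA it was predicted to target: MYOD1, the master transcription factor of myoblast differentiation, MEF2D, a transcription factor that acts with it, and HDAC4, a histone deacetylase that restrains MEF2 factors. The paper reports that mimics of NC_010454.3_1179 lowered the MYOD1 reporter and, in cultured pig myoblasts, myosin heavy chain and MYOG. It reports MEF2D and HDAC4 as targets of their paired members too. NC_010454.3_1179, paired with MYOD1, had 263, 107 and 53.8 TPM in RE35, RE55 and RE90, and 99.2, 145 and 28.5 TPM in NE35, NE55 and NE90. It was 2.65-fold higher in RE35 than in NE35 and 1.89-fold higher in RE90 than in NE90 (1.44 to 2.5), and 1.35-fold lower in RE55 than in NE55 (1.15 to 1.6). Only the first passed the 2-fold limit. MYOD1 mRNA had 26, 29.7 and 51.2 RPKM in RE35, RE55 and RE90, and 16.8, 23.8 and 36.1 RPKM in NE35, NE55 and NE90, higher in the RE library at each stage.

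NC_010447.4_13814, paired with MEF2D, was a rare member, with 92 reads in RE35 and 19 in NE35 and 13 to 28 later. It was 2.52-fold higher in RE35 than in NE35 (1.53 to 4.38). MEF2D mRNA had 16.1, 20.3 and 28.9 RPKM in RE35, RE55 and RE90, and 11.4, 17.6 and 12.8 RPKM in NE35, NE55 and NE90. NC_010454.3_1347, paired with HDAC4, was lower in the RE library than in the NE library at each stage. NC_010454.3_1347 had 221, 92.1 and 49.9 TPM in RE35, RE55 and RE90, against 313, 170 and 103 TPM in NE35, NE55 and NE90. Only at 90 dg did the difference pass 2-fold (2.07-fold, 1.71 to 2.5). HDAC4 mRNA had 3.41, 1.79 and 2.38 RPKM in RE and 2.16, 1.67 and 1.06 RPKM in NE. These mRNA levels come from other libraries of the same groups, with 1 library each, and no test between a member and its gene was made.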

How the data were processed

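Small RNA and polyadenylated RNA of fetal longissimus muscle were sequenced, with 1 library per diet and stage. The authors trimmed the 3′ adaptor of the small RNA reads, kept sequences of 16 to 26 nt, predicted candidates with miRDeep2 at its default score and deposited counts per miRNA and TPM, scaled to the reads on miRNAs. For mRNA the authors used TopHat2 on Sscrofa10.2 and deposited counts per gene and RPKM. Deposited TPM lay within 2.52 of the reads scaled to the library total. Columns named SE were read as RE. Of 19158 gene identifiers 11010 had a symbol.

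Names with identical reads were entered once. Pairs of libraries were compared by Fisher's exact test (two-sided, scipy 1.17.1) with p under 0.01 and a fold above 2, over miRNAs with at least 10 reads in either library, and folds have exact 95% counting intervals. All 6 libraries were fitted with edgeR 4.0.16 (R 4.3.3, TMM, quasi-likelihood, diet and stage, at least 10 reads in at least 2 libraries, adjusted p under 0.05). The SE after ± is not an output of edgeR. It was derived as the size of the log2 fold change divided by the square root of the F statistic of the test. DESeq2 1.42.0, other scalings and minimums and leaving out libraries were alternatives. Scripts were tested on simulated data. Depth was 1522142 to 3811231 reads per library, so 3 reads are worth 0.787 to 1.97 TPM.

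Members, lists and tests were chosen with earlier results of these data known. Named are members with primers or reporter assays, the 5 most abundant, up to 3 highest and 3 lowest called folds per pair with at least 50 reads, up to 5 each in the 6-library fit, and those at least 10 times higher in 1 library. Others named were chosen after their values were seen. No genome was used, so no coordinates are given.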

Additional observations from a re-analysis of the deposited data

Results flagged for a closer look

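In 2 candidate miRNAs the RE and NE libraries differed in opposite directions at 35 and 55 dg, each time past the limits of the comparison of 2 libraries. NC_010451.3_19102 had a log2 ratio of RE over NE of 1.29 at 35 dg (61 reads in RE35 and 13 in NE35) and of -1.23 at 55 dg (171 reads in RE55 and 610 in NE55). NC_010461.4_19831 had a log2 ratio of -1.53 at 35 dg (20 reads in RE35 and 30 in NE35) and of 2.37 at 55 dg (51 reads in RE55 and 15 in NE55). With 1 library per diet and stage the difference between the stages was not tested.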

How the results depend on the processing

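The number of members was 124. It was 196 with a minimum of 5 reads, 97 with 10 reads in at least 2 libraries and 134 with every name counted, and 112 to 123 with 1 library left out, an alternative chosen after seeing the data. Without a minimum the candidates' share of reads was 5.9% in RE35, 5.61% in NE35, 6.17% in RE55, 5.17% in NE55, 4.002% in RE90 and 3.62% in NE90. A minimum of 50 reads left 18 calls in RE35 against NE35 in place of 28, 7 in RE55 against NE55 in place of 11 and 38 in NE55 against NE35 in place of 60. A fold above 4 left 15 calls in RE35 against NE35, 3 in RE55 against NE55, 2 in RE90 against NE90, 11 in RE55 against RE35, 6 in NE90 against NE55 and 4 in RE90 against RE55. A fold of TPM + 1 with no test gave 8 calls in RE90 against NE90 in place of 5. In the 6-library fit of 55 dg against 35 dg the 25 calls became 0 to 35 with 1 library left out: 0 without NE35 or RE35, 3 without NE55, 8 without RE55, 31 without NE90 and 35 without RE90. A lone library of a stage was then assumed to vary like the others. DESeq2 gave 33 calls there and 1 in 90 dg against 55 dg, in place of 0. Leaving out a library gave 0 calls of members between RE and NE. Over all miRNAs, 1 was called between RE and NE without NE90 and 1 without RE90. Between 90 and 55 dg, leaving out NE35 or RE35 gave 0 calls of members and 0 of all miRNAs. TMM scaling shifts every log2 ratio by 0.16 in RE35 against NE35, -0.25 in RE55 against NE55, -0.09 in RE90 against NE90, 0.47 in NE55 against NE35, 0.05 in RE55 against RE35, 0.17 in NE90 against NE55 and 0.33 in RE90 against RE55, and changed no call of a named member to the opposite direction. Among single named members, 400 of the alternative ratios between 2 libraries kept their side of the limits, 9 passed them newly and 5 no longer did, all in the same direction. The cause was not tested except where fewer miRNAs or libraries entered. No paired analysis was possible because the labels give no replicate numbers and each condition has 1 library. Members below about 20 reads have intervals that span several fold.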

Other observations

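Chromosome X held a further group of 8 candidate miRNAs whose names end in numbers from 19702 to 19789, among them the abundant NC_010461.4_19710. These differed from the group high in NE35: only 1 of the 8 had its highest TPM there, and none was called between RE35 and NE35. They summed to 4414, 6341 and 3841 TPM in RE35, RE55 and RE90, and to 3763, 4574 and 4289 TPM in NE35, NE55 and NE90. Both groups were formed after the values had been seen.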
